A study of Mus musculus with 23 samples.

Results

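The genes described here encode 9 subunits of the Polycomb repressor complexes, Ezh1, Ezh2, Eed, Suz12, Jarid2, Rnf2, Cbx2, Cbx7 and Cbx8, and were chosen by symbol among the 36814 Ensembl genes of each count table. All 9 had a count in the tables and all 9 passed edgeR's filter for low counts, Cbx8 only through the groups in which it was high. The RNA came from F9, a line of mouse embryonal carcinoma cells, which differentiate into extraembryonic endoderm under retinoic acid. The untreated group (0 h) held 4 libraries. All-trans retinoic acid (RA) at 1e-07 M was given for 6, 12, 24 or 48 h, with 2 libraries at each time, and dimethyl sulfoxide (DMSO, the solvent) at 0.001% was given for 24 or 48 h, with 1 library at each time. The same line carried every group, with no genetic change named in the labels, and the other 9 samples of the series, of chromatin and receptor binding, were not used here.

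Polycomb proteins keep developmental genes silent and work in 2 kinds of complex. Polycomb repressive complex 2 (PRC2) methylates histone H3 at lysine 27: EZH1 or EZH2 is the catalytic subunit, EED reads the mark and stimulates the enzyme, SUZ12 holds the complex together, and JARID2 is an accessory subunit that helps bring it to chromatin. Polycomb repressive complex 1 (PRC1) attaches ubiquitin to histone H2A through RNF2 (RING1B) and, in its canonical form, binds methylated H3 through a CBX protein. In mouse embryonic stem cells CBX7 is the main CBX of PRC1, while CBX2 and CBX8 become more prominent on differentiation, and EZH1 is known as the form of the enzyme in cells that divide little.

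Across the 9 genes, the clearest falls after 48 h of RA were those of Jarid2 (2.68-fold), Cbx7 (2.52-fold) and Eed (1.92-fold), and Suz12 and Rnf2 also fell. Cbx8 rose from a level near the floor of the assay, and Ezh1 rose 1.43-fold. In all, 2 of the 9 genes rose, 5 fell and 2 (Ezh2 and Cbx2) did not pass the test at 48 h, where 48.8% of the 16155 genes tested were called. Called means an adjusted p under 0.05 in edgeR's quasi-likelihood test, with Benjamini-Hochberg adjustment over every gene tested. With so large a share of all genes called, the count of 7 of 9 is not a result about these subunits, and what follows gives which of them moved, which way and when.

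Promoter sequences, 250 bases before to 50 bases after the annotated start, were found in the RefSeq table of build GRCm38.p6 for 8 of the 9 genes, with 2 starts for Jarid2 (Cbx2 is named only). Those of the 3 genes with the clearest falls are shown, with Cbx8 as the gene that rose most and Ezh2 as the only promoter here with a match to the E2F letters searched. For Jarid2 only the first of its 2 starts is shown. Capitals mark the letters searched on both strands: CCAAT, or ATTGG where it lies on the other strand, the E2F element TTTGGCGC, and the cAMP response element TGACGTCA. Matches of different motifs did not overlap.
Jarid2, GRCm38.p6 chr13:44730524-44730823, plus strand: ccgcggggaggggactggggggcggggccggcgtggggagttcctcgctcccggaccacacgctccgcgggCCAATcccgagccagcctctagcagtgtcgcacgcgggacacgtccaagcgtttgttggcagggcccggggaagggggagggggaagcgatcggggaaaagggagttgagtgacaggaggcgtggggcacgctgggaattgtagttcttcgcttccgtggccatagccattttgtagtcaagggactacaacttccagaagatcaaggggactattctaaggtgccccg
Eed, GRCm38.p6 chr7:89980927-89981226, minus strand: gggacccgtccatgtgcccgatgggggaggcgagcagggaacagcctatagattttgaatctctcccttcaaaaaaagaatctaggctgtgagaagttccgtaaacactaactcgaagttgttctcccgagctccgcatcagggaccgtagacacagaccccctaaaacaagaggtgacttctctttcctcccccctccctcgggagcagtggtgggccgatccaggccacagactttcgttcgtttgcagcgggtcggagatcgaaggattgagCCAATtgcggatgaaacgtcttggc
Cbx7, GRCm38.p6 chr15:79932597-79932896, minus strand: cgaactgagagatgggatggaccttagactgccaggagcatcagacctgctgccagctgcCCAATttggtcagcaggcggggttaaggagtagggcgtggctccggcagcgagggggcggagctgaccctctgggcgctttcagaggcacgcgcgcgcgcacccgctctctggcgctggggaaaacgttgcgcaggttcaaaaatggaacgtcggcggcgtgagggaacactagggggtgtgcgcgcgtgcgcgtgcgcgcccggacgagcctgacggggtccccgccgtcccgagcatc
Cbx8, GRCm38.p6 chr11:119040864-119041163, minus strand: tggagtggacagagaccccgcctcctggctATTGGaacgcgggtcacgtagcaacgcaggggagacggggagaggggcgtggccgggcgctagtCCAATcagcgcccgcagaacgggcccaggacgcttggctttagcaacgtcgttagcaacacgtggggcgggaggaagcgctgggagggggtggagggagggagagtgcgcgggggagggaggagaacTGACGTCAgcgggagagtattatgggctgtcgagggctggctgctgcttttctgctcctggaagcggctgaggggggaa
Ezh2, GRCm38.p6 chr6:47594981-47595280, minus strand: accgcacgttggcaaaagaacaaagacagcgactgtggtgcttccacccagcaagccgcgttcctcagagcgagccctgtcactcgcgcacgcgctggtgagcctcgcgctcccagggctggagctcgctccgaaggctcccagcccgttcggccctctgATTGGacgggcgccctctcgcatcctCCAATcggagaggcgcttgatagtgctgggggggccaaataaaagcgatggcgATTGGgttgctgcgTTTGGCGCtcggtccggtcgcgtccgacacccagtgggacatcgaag

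The 9 promoters of these genes, with 2 of Jarid2 and none of Cbx2, were rich in CpG. They held 17 to 41 CpG pairs each against a median of 7 over all 32851 promoters of the table, of which 31.4% held at least 17, and 54.7 to 72.7% G and C against a median of 52.7%. CCAAT was found in 7 of the 9, on either strand, and in 37.4% of all promoters. The E2F elements TTTGGCGC and TTTCGCGC were searched together, and other forms of the element were not searched. Ezh2 alone among the 9 held a match, which begins at base 4 after the start, and 0.813% of all promoters held 1 or more. The cAMP response element stood only in the Cbx8 promoter, 29 bases before its start, against 1.79% of all promoters. AGGTCA, a hexamer that retinoic acid receptors bind, was found in none of the 9 windows and in 16.3% of all promoters. Its direct repeats with 5 or 2 bases between, each in 0.00913% of all promoters, were not there either. Related hexamers were not searched. A match is a description of the letters and not a binding site, and windows without a match show only that these letters are not in them.

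Between 7078941 and 10948932 reads per library were counted in genes. Reads that hit no annotated feature made up 57.3 to 59.4% in 7 libraries (set 1) and 52.5 to 53.8% in the other 7 (set 2). Set 1 held replicate 1 of 0 h and of each RA time and both DMSO libraries, so every DMSO library lies in set 1. The set was a term in the fit and is given beside the values. Between the sets 42.1% of the genes tested were called (22% higher in set 2 and 20.1% lower), and with them Suz12 (0.72 ± 0.14 on the log2 scale, SE, adjusted p = 0.00100), Rnf2 (0.63 ± 0.09, adjusted p = 0.000139) and Ezh2 (0.25 ± 0.09, adjusted p = 0.0453), all higher in set 2, by edgeR. The other 6 genes were not called between the sets. The labels do not state separate cultures, so p-values reflect only how far these libraries scatter, possibly for technical reasons. Levels are given as CPM, a gene's count over all gene counts of its library scaled to a common total, which is not corrected for gene length and is compared only between libraries. Because the RNA came from bulk cultures, fewer cells of a kind and less RNA per cell cannot be told apart.

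**Figure D1:**
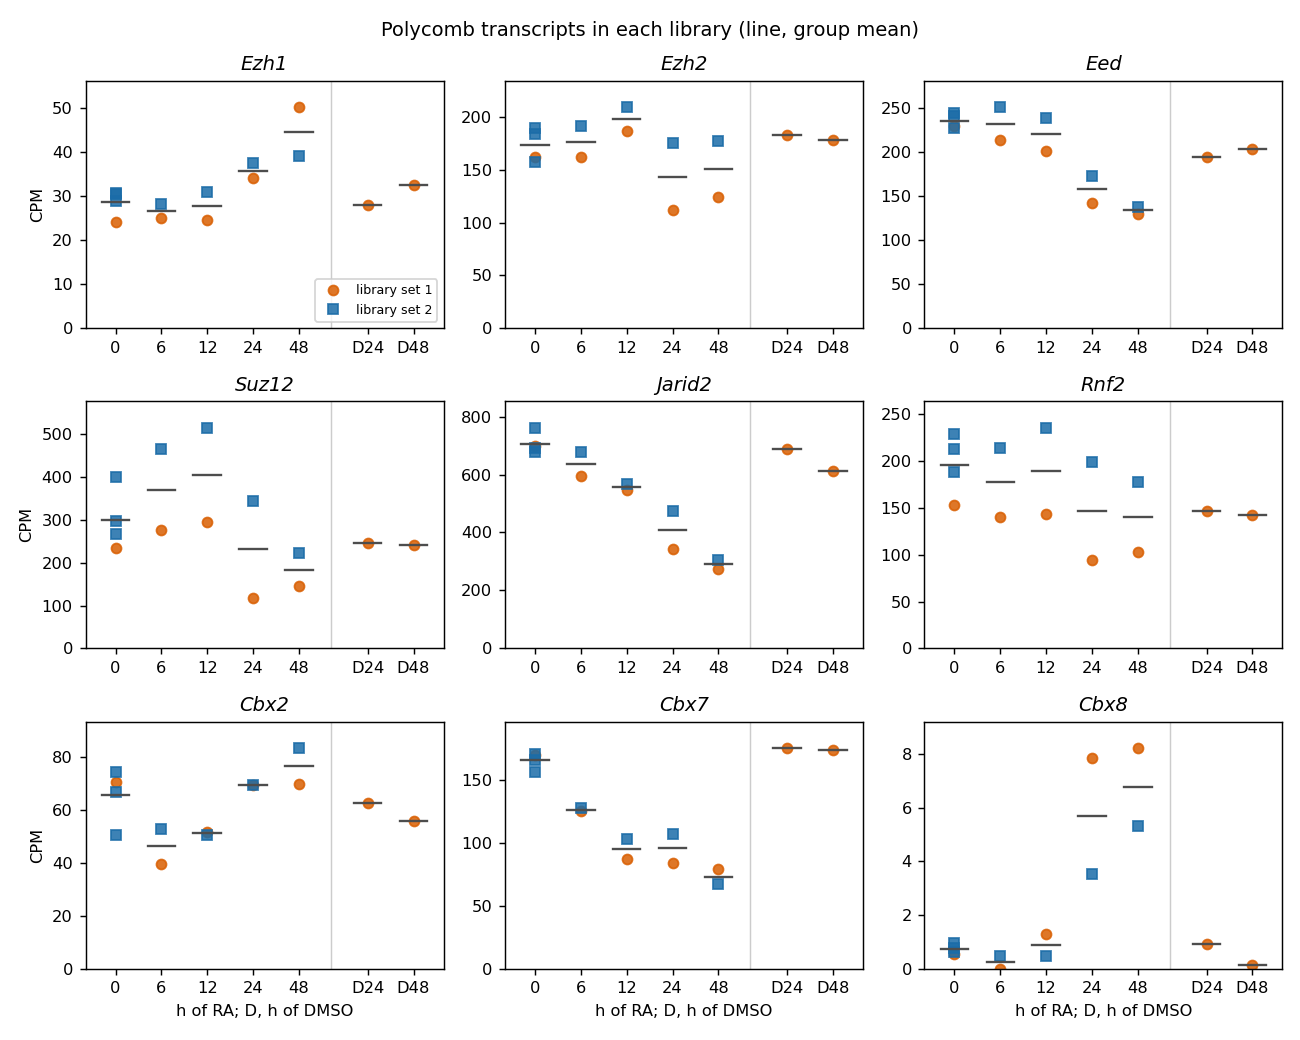
Level of each of the 9 transcripts (CPM, linear axis from 0) in each library by hours of RA, with the 2 DMSO libraries at the right; circles are library set 1, squares set 2, and lines the group means. Jarid2, Eed and Cbx7 decline with time in RA, Cbx8 is at 3.54 CPM or more only at 24 and 48 h of RA, and Suz12 and Rnf2 separate by library set at every RA time.

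Ezh1 and Ezh2 encode the alternative catalytic subunits of PRC2. The level of Ezh1 was 24.2, 30.7, 30.6 and 28.8 CPM in the 4 libraries of 0 h, 34.0 and 37.6 CPM at 24 h of RA, and 50.2 and 39.1 CPM at 48 h. All 4 libraries of 24 and 48 h lay above every 0 h library and above the DMSO libraries at 27.9 and 32.5 CPM. Ezh1 rose at 48 h by 0.51 ± 0.16 on the log2 scale (SE, edgeR adjusted p = 0.0163), and at 24 h its change of 0.23 ± 0.16 was not called (adjusted p = 0.309). The call at 48 h was lost in several other settings. The log2 change was 0.18 (adjusted p = 0.476) without replicate 1 of 48 h, 0.44 (adjusted p = 0.0588) without replicate 1 of 0 h and 0.26 (adjusted p = 0.386) in set 2 alone, in a range of adjusted p from 0.00496 to 0.476 when each library was left out. It was 0.49 without the set term (adjusted p = 0.0513) and 0.49 with only the groups compared in the fit (adjusted p = 0.0517). Against DMSO at 48 h the change of Ezh1 was 0.26 ± 0.23 and was not called (edgeR adjusted p = 0.436).

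Ezh2 behaved differently in the 2 sets. Its level was 162, 184, 157 and 190 CPM at 0 h, 112 and 176 CPM at 24 h of RA, and 124 and 177 CPM at 48 h, the lower value at each RA time coming from set 1. These set 1 libraries lay below every 0 h library and below the DMSO libraries at 183 and 179 CPM, whereas those of set 2 lay within the 0 h range. The change at 48 h was −0.31 ± 0.14 (95% interval −0.60 to −0.02) and was not called (edgeR adjusted p = 0.0761). It was called without replicate 3 of 0 h (−0.36, adjusted p = 0.0360), and without replicate 1 (−0.32, adjusted p = 0.0394) or 2 (−0.31, adjusted p = 0.0369) of 24 h, within a range of adjusted p of 0.0360 to 0.255. At 24 h the change of −0.34 ± 0.14 was likewise not called (adjusted p = 0.0741), and leaving out replicate 2 of 24 h gave −0.55 (adjusted p = 0.0256) and leaving out replicate 3 of 0 h gave −0.40 (adjusted p = 0.0374), in a range of 0.0256 to 0.448. DESeq2 with the set term gave −0.36 at 24 h (adjusted p = 0.0441).

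The ratio of Ezh1 to Ezh2 counts within a library does not depend on library size, and was compared between the 4 libraries of 24 and 48 h of RA and the 6 of 0 h and DMSO. The log2 ratio was −2.75 to −2.37 in the 6 control libraries and −2.22 to −1.30 in the 4 RA libraries, and the groups did not overlap. The mean was higher by 0.74 after RA, a 1.67-fold shift toward Ezh1 (exact permutation test, two-sided, p = 0.00952, the smallest the 210 arrangements allow, and 0.00952 after adjustment over 4 ratios). The 210 arrangements pooled the times and the controls and took no account of library set. How often pairs of other genes part these libraries was not computed. Within set 1 the difference was 1.13 and within set 2 it was 0.35, each with the smallest exact permutation p that these sets allow, 0.2.

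Eed encodes the WD40 subunit that binds trimethylated lysine 27. Its level was 230, 245, 241 and 227 CPM at 0 h, 214 and 251 CPM at 6 h, 201 and 239 CPM at 12 h, 142 and 174 CPM at 24 h, and 130 and 138 CPM at 48 h of RA. All 4 libraries of 24 and 48 h lay below all 0 h libraries and below the DMSO libraries, which at 195 and 204 CPM themselves lay below the 0 h range. Eed fell by 0.67 on the log2 scale at 24 h (SE 0.11, edgeR adjusted p = 0.000563) and by 0.94 at 48 h (SE 0.11, adjusted p = 1.53e-05). The 48 h call held without each library in turn and in each other setting run. At 24 h the adjusted p was 0.0570 in set 2 alone, where the log2 change was −0.58.

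Suz12 encodes the zinc-finger scaffold of PRC2, and its level varied most with the library set. In set 1 it was 234 CPM at 0 h and 276, 296, 119 and 145 CPM at 6, 12, 24 and 48 h of RA. In set 2 it was 266 to 400 CPM over 3 libraries of 0 h and 464, 515, 343 and 222 CPM at the same times. In both sets the 6 and 12 h libraries lay above their own 0 h libraries and the 48 h library below them, and the DMSO libraries, of set 1, were at 247 and 242 CPM. At 24 h the sets parted, with set 1 far below its 0 h library and set 2 within its 0 h range. Suz12 fell by 0.70 on the log2 scale at 48 h (SE 0.20, edgeR adjusted p = 0.0109), which was not called once replicate 2 of 48 h was left out (−0.55, adjusted p = 0.151) or the set term dropped (−0.85, adjusted p = 0.136). Leaving out each library gave adjusted p values from 0.000943 to 0.151.

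The early values of Suz12 were not called. The change was 0.48 ± 0.19 at 6 h (edgeR adjusted p = 0.211) and 0.56 ± 0.19 at 12 h (adjusted p = 0.0736). DESeq2 with the set term gave 0.54 at 12 h and called it (adjusted p = 0.0452). Leaving out replicate 1 of 0 h gave 0.72 (adjusted p = 0.0335), and leaving out replicate 1 or 2 of 24 h gave 0.53 each (adjusted p = 0.0218 and 0.0226), in a range of 0.0218 to 0.361. At 24 h Suz12 was at −0.44 ± 0.20 (adjusted p = 0.111). With the replicate number as a block it was −0.68 and called (adjusted p = 0.0157), as it was without replicate 2 of 24 h (−0.95, adjusted p = 0.00584, in a range of 0.00584 to 0.782).

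Jarid2 encodes an accessory PRC2 subunit that is highly expressed in mouse embryonic stem cells. Its level was 697, 679, 761 and 691 CPM at 0 h, 595 and 679 CPM at 6 h, 547 and 567 CPM at 12 h, 341 and 473 CPM at 24 h, and 275 and 305 CPM at 48 h of RA. From 12 h on, every RA library lay below every 0 h library and below the DMSO libraries at 689 and 612 CPM. Jarid2 fell by 0.90 on the log2 scale at 24 h (SE 0.13, edgeR adjusted p = 0.000149) and by 1.42 at 48 h (SE 0.13, adjusted p = 1.37e-06), and both calls held in every setting run. At 12 h the change of −0.34 ± 0.12 was not called (adjusted p = 0.0894), although DESeq2 with the set term called it (adjusted p = 0.0451), as did edgeR without replicate 1 (−0.35, adjusted p = 0.0413) or 2 (−0.36, adjusted p = 0.0393) of 24 h, in a range of 0.0393 to 0.483.

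Between 24 and 48 h of RA, where 11% of all genes tested were called (6.4% higher and 4.62% lower), Jarid2 was the only gene of the 9 called. It fell by 0.52 on the log2 scale (SE 0.14, edgeR adjusted p = 0.0280). That call was lost without replicate 1 (adjusted p = 0.0509) or 2 (adjusted p = 0.0587) of 6 h, replicate 2 of 24 h (−0.33, adjusted p = 0.150), or replicate 1 (adjusted p = 0.0885) or 2 (adjusted p = 0.163) of 48 h, in a range of 0.0165 to 0.163. It was also lost in set 2 alone (−0.63, adjusted p = 0.226) and without the set term (−0.53, adjusted p = 0.190). Cbx7 was at −0.42 ± 0.14 and Eed at −0.27 ± 0.12 in the same comparison, with edgeR adjusted p values of 0.0771 and 0.177.

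**Figure D2:**
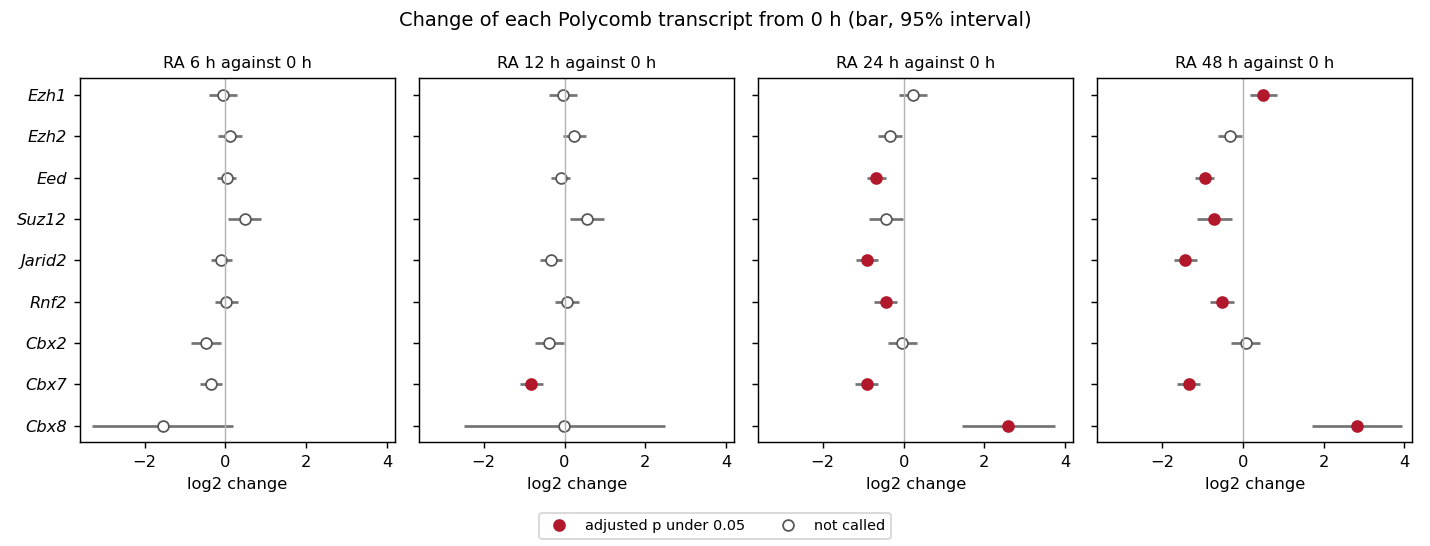
Log2 change of each transcript from 0 h at each RA time from the fit with the library set term, with 95% intervals as bars; filled points passed an adjusted p under 0.05 and open points did not. Cbx7 is the only filled point at 12 h, 5 genes are filled at 24 h and 7 at 48 h; all 4 panels share the 0 h libraries.

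Rnf2 encodes RING1B, the main ubiquitin ligase of PRC1. In set 1 its level was 153 CPM at 0 h and 140, 143, 94.2 and 102 CPM at 6, 12, 24 and 48 h of RA, with both DMSO libraries at 147 and 143 CPM. In set 2 it was 189 to 229 CPM at 0 h and 214, 235, 198 and 178 CPM at the same times. Within set 1 the 24 and 48 h libraries lay below all others, while within set 2 only the 48 h library lay below the 0 h range. Rnf2 fell by 0.45 on the log2 scale at 24 h (SE 0.14, edgeR adjusted p = 0.0250) and by 0.52 at 48 h (SE 0.14, adjusted p = 0.00680).

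The 24 h call of Rnf2 was lost without replicate 1 of 0 h (−0.34, adjusted p = 0.0885) or of 24 h (−0.26, adjusted p = 0.237), in a range of 0.00841 to 0.237, and in set 2 alone (−0.21, adjusted p = 0.452). It was also lost without the set term (−0.54, adjusted p = 0.322) and with only the groups compared in the fit (−0.45, adjusted p = 0.0960). At 48 h it was lost in set 2 alone (−0.36, adjusted p = 0.136) and without the set term (−0.63, adjusted p = 0.176), but held without each library in turn. Ring1, the gene of the other RING subunit, was at 0.38 ± 0.28 at 48 h and was not called (edgeR adjusted p = 0.283).

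The 3 chromobox genes among the 9 encode CBX proteins that read trimethylated lysine 27 in canonical PRC1, and they differed in their course. Cbx7 fell, Cbx8 rose and Cbx2 was not called at any time in the fit with the set term. Cbx7 was at 170, 171, 156 and 166 CPM at 0 h, 125 and 128 CPM at 6 h, 87.1 and 103 CPM at 12 h, 84.5 and 107 CPM at 24 h, and 79.3 and 67.3 CPM at 48 h of RA. Every RA library, including both of 6 h, lay below every 0 h library, and the DMSO libraries, at 175 and 174 CPM, lay above them all. Cbx7 was the only gene of the 9 called by 12 h, when 12.7% of all genes tested were called (7.38% higher and 5.31% lower), and fell by 0.82 on the log2 scale (SE 0.13, edgeR adjusted p = 0.000933). In set 2 alone that change was −0.70 (adjusted p = 0.0691). It fell by 0.91 at 24 h (SE 0.13, adjusted p = 0.000175) and by 1.33 at 48 h (SE 0.13, adjusted p = 3.36e-06), and both calls held in every setting run.

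At 6 h none of the 9 genes was called, against 5.61% of all genes tested (4.1% higher and 1.51% lower). An unadjusted p under 0.05 was found for 2712 of the 16155 genes tested and for 3 of the 9: Suz12, Cbx7 at −0.37 ± 0.13 and Cbx2 at −0.48 ± 0.17. DESeq2 with the set term also called none of the 9. Cbx2 was at 70.5, 74.4, 66.9 and 50.7 CPM at 0 h, 39.7 and 52.8 CPM at 6 h, 51.6 and 50.7 CPM at 12 h, 69.5 and 69.4 CPM at 24 h, and 69.7 and 83.3 CPM at 48 h. Its values at 6 and 12 h lay near or below the low end of the 0 h range, which replicate 4 of 0 h sets, and those of 24 and 48 h lay within that range or above it. With the replicate number as a block, which leaves out replicates 3 and 4 of 0 h, Cbx2 was called at 6 h (−0.63, edgeR adjusted p = 0.0247) and at 12 h (−0.53, adjusted p = 0.0407). Without replicate 4 of 0 h it was at −0.59 at 6 h (adjusted p = 0.0351, in a range of 0.0351 to 0.759). The change of Cbx2 at 48 h was 0.07 ± 0.17 (95% interval −0.28 to 0.43, adjusted p = 0.754).

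Cbx8 was low before RA. It had 4, 10, 6 and 8 reads in the 0 h libraries, 0 and 5 at 6 h, 11 and 5 at 12 h, 72 and 38 at 24 h, and 74 and 58 at 48 h of RA, and the DMSO libraries had 7 and 1. These counts amount to 0.565 to 0.949 CPM at 0 h, 7.86 and 3.54 CPM at 24 h, and 8.20 and 5.30 CPM at 48 h. All 4 libraries of 24 and 48 h of RA lay above all other libraries. Cbx8 rose by 2.60 ± 0.53 on the log2 scale at 24 h (edgeR adjusted p = 0.00258) and by 2.83 ± 0.52 at 48 h (adjusted p = 0.000504), calls that held in every setting run. No library of 0 h reached the level of 1.05 CPM that the filter asks, and 5 of the 14 libraries did, so that Cbx8 was tested only because it was high in RA. Its calls are therefore given as a description and not as support for the rise. Against the 1 read of the DMSO library at 48 h, the ratio of CPM at 48 h of RA was 52.7 with a 95% counting interval of 9.30 to 2097, and against the 7 reads at 24 h it was 6.03, with an interval of 2.83 to 15.3. The edgeR adjusted p was 0.00359 at 48 h and 0.0623, not called, at 24 h. At 24 h it was called with no filter for low counts (adjusted p = 0.0426), and without replicate 1 of 0 h (adjusted p = 0.0487), replicate 1 (adjusted p = 0.0326) or 2 (adjusted p = 0.0325) of 6 h or replicate 2 of 24 h (adjusted p = 0.0380), in a range of 0.0325 to 0.314.

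Within libraries, the balance of these 3 chromobox transcripts moved away from Cbx7. Cbx6, a chromobox gene outside the 9, is named here as a member of the same family, and it fell too. Its change was −0.61 ± 0.16 at 12 h and −1.26 ± 0.16 at 48 h (edgeR adjusted p = 0.0196 and 2.55e-05), from a mean of 205 CPM at 0 h to 107 CPM at 48 h. No ratio to Cbx6 was computed. The log2 ratio of Cbx2 to Cbx7 counts was −1.71 to −1.20 in the 6 libraries of 0 h and DMSO and −0.62 to 0.31 in the 4 of 24 and 48 h of RA. The groups did not overlap, and the mean was higher by 1.23 after RA, a 2.34-fold shift (exact permutation test, two-sided, p = 0.00952, the smallest possible, and 0.00952 after adjustment over 4 ratios). The shift was 1.23 in set 1 and 1.22 in set 2, and the test itself took no account of library set. Cbx2 was not called at 24 or 48 h, so this ratio reflects the fall of Cbx7 in the same libraries and is no separate support. How often pairs of other genes part these libraries was not computed. The log2 ratio of Cbx8 to Cbx7 was −10.43 to −7.49 in the controls and −4.91 to −3.27 after RA, higher by 4.43 on average. Its p-value enters the adjustment over 4 ratios but is not given, since Cbx8 passed the filter only because it was high in RA. The difference rests on few Cbx8 reads in the controls and was 3.43 with 5 added to every count. The log2 ratio of Cbx2 to Cbx8 was 6.03 to 8.80 in the controls and 3.09 to 4.29 after RA, a difference of −3.20 on average, and of −2.21 with 5 added to every count. The Cbx8 to Cbx7 difference was 5.40 in set 1 and 3.46 in set 2, and that of Cbx2 to Cbx8 −4.17 and −2.24.

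**Figure D3:**
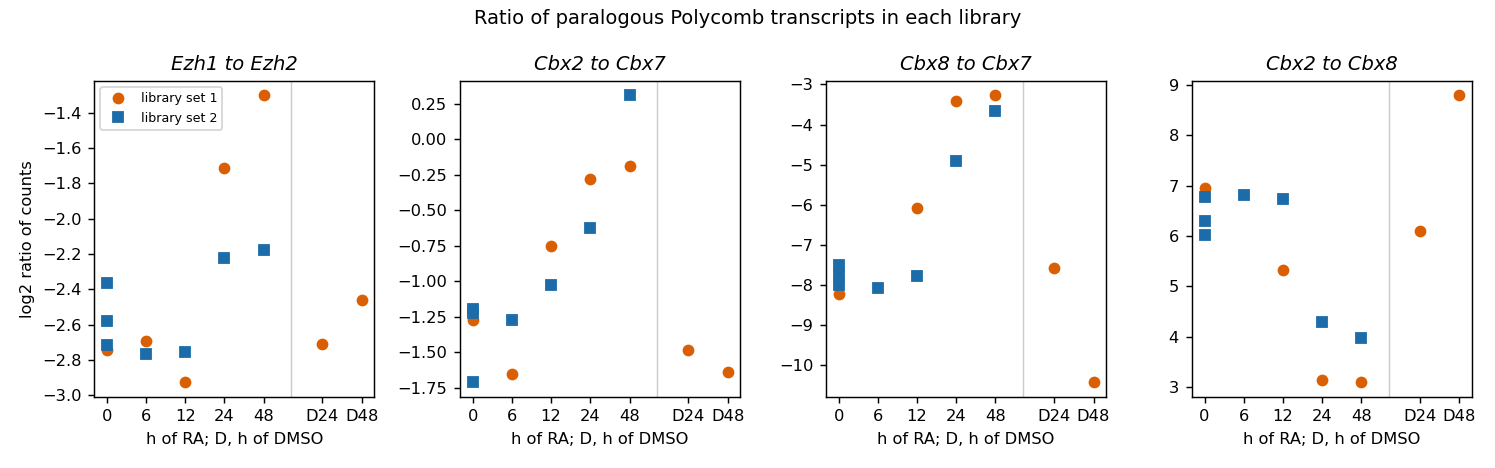
Log2 ratio of counts of 2 related Polycomb genes within each library, by hours of RA and DMSO; circles are library set 1 and squares set 2, and each panel has its own axis. In all 4 panels the libraries of 24 and 48 h of RA lie apart from those of 0 h and DMSO. No share over other gene pairs was computed. Replicate 1 of 6 h has no Cbx8 read and no point in the panels that use it.

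At 24 h, where 29% of all genes tested were called, 1 of the 9 genes rose (Cbx8), 4 fell (Eed, Jarid2, Rnf2 and Cbx7) and 4 were not called. At 48 h, where 25.8% of all genes were called higher and 22.9% lower, the 9 genes had a median log2 change of −0.52 against 0.02 over all genes tested. The within-set differences, of 1 RA library against the 0 h library or libraries of its set and without a test, had the same sign in both sets at 48 h for 7 of the 9 genes: Ezh1, Eed, Suz12, Jarid2, Rnf2, Cbx7 and Cbx8. These are the 7 genes called at 48 h from the same libraries, so the signs are no separate support. The share of all genes with the same sign in both sets was not computed. For Jarid2 the differences were −1.34 in set 1 and −1.22 in set 2 on the log2(CPM + 1) scale, and for Cbx7 −1.09 and −1.28. For Ezh1 they were 1.03 and 0.37, for Rnf2 −0.57 and −0.23, and for Ezh2 −0.39 and 0.01.

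**Figure D4:**
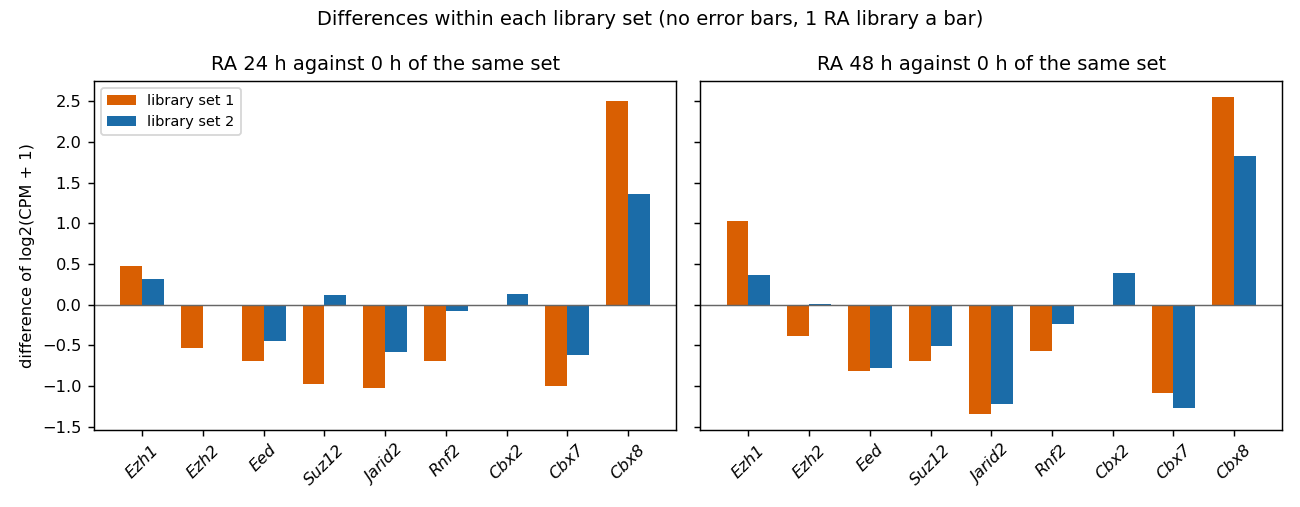
Difference of log2(CPM + 1) between the RA library of each set and the 0 h library (set 1) or the mean of the 3 libraries of 0 h (set 2), at 24 h (left) and 48 h (right). Both sets have the same sign for 7 of 9 genes at 48 h, with no share over all genes computed. At 24 h Suz12 lies below 0 in set 1 and above 0 in set 2.

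The DMSO libraries show how the genes stood without RA. As 1 group against 0 h they gave 0 called genes of the 16155 (0%) and 0 of the 9 by edgeR. None of the 9, and 1263 of all genes tested, had an unadjusted p under 0.05, and DESeq2 called 6 genes, none of them among the 9. Against DMSO at 24 h, where 10.4% of all genes tested were called (5.83% higher and 4.61% lower), 4 of the 9 genes fell (Ezh2, Eed, Jarid2 and Cbx7) and 5 were not called. Against DMSO at 48 h, where 24.1% were called, Cbx8 rose, 5 fell (Eed, Suz12, Jarid2, Rnf2 and Cbx7) and 3 were not called. The comparisons with DMSO and with 0 h share their RA libraries, and each DMSO group is 1 library assumed to vary like the others.

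Jarid2 was at −0.98 ± 0.17 against DMSO at 24 h and −1.30 ± 0.17 at 48 h (edgeR adjusted p = 0.00274 and 0.000160). Cbx7 was at −1.04 ± 0.18 and −1.40 ± 0.18 (adjusted p = 0.00252 and 0.000109). Both genes kept these calls without each library in turn, as did Eed at 48 h at −0.82 ± 0.15 (adjusted p = 0.00192). Suz12 was at −0.96 ± 0.28 at 48 h (edgeR adjusted p = 0.0230), which was lost without replicate 2 of 48 h (−0.83, adjusted p = 0.0893, in a range of 0.00625 to 0.0893). Without the set term it was at −0.57 and not called (adjusted p = 0.542).

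Calls nearer the threshold changed with single libraries. Ezh2 at 24 h against DMSO was at −0.67 ± 0.19 (edgeR adjusted p = 0.0420) and lost its call in 6 of 13 such fits, with adjusted p values from 0.00982 to 0.269, and Eed at 24 h, at −0.52 ± 0.15 (adjusted p = 0.0453), in 8 of 13 (0.0341 to 0.190). Replicate 1 of 24 h moved both the most, to −0.45 for Ezh2 and −0.46 for Eed. At 48 h Ezh2 was at −0.56 ± 0.19 and just missed the threshold (adjusted p = 0.05001). It was called with RLE normalization (−0.55, adjusted p = 0.0453), with DESeq2 (−0.55, adjusted p = 0.0397), and without replicate 1 (−0.60, adjusted p = 0.0322) or 3 (−0.57, adjusted p = 0.0292) of 0 h or replicate 1 (−0.52, adjusted p = 0.0398) or 2 (−0.50, adjusted p = 0.0354) of 24 h, in a range of 0.0292 to 0.202. Rnf2 at 48 h, at −0.56 ± 0.19 (adjusted p = 0.0494), lost its call in 8 of 13 (0.0235 to 0.153), with the highest value without replicate 1 of 48 h (−0.53), and the size of its change against DMSO rests on the set term. Its level was 143 CPM in that DMSO library, 102 CPM in the RA library of the same set and 178 CPM in that of set 2, and without the term the change was −0.19 (adjusted p = 0.817).

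The rest of the Polycomb machinery was read from lists of PRC2 and PRC1 genes. Of 30 listed genes outside the 9, all of which were tested, 9 rose, 11 fell and 10 were not called at 48 h, where 25.8% of all genes tested were called higher and 22.9% lower, shares that also stand behind the list counts that follow. These genes had a median log2 change of −0.065 against 0.02 over all genes. Among the 6 genes of the PRC2 core list 2 rose and 3 fell. Beside Ezh1, the riser was Rbbp7, which encodes a histone-binding WD40 protein shared with other complexes, with a change of 0.96 ± 0.13 (edgeR adjusted p = 3.46e-05). Of 6 accessory PRC2 genes 1 rose and 4 fell. Phf19, a Tudor-domain partner of PRC2, fell by 2.38 on the log2 scale (SE 0.24, edgeR adjusted p = 3.97e-06), from a mean of 22.2 to 5.02 CPM. Epop, a partner that links PRC2 to elongin, fell by 1.04 in the fit with the set term (SE 0.28, adjusted p = 0.00945), while its mean level went from 760 to 544 CPM.

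Earlier, at 6 h, 2 of the 30 genes were called, against 5.61% of all genes tested, and both were PRC2 accessory genes, named here after their values were seen. Mtf2, another Tudor-domain partner, rose by 0.72 ± 0.14 and Aebp2, a zinc-finger partner, by 0.75 ± 0.15 (edgeR adjusted p = 0.00507 and 0.00897). Suz12 was at 0.48 ± 0.19 at that time and not called. At 48 h Mtf2 was below its 0 h level, at −0.45 ± 0.14 (adjusted p = 0.0189).

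Of 11 genes on the canonical PRC1 list 4 rose, 3 fell and 4 were not called at 48 h, where 48.8% of all genes tested were called. Phc1, a polyhomeotic gene, fell by 1.98 on the log2 scale (SE 0.16, edgeR adjusted p = 5.13e-07), from a mean of 649 to 181 CPM. Bmi1, a PCGF gene of canonical PRC1, rose by 1.98 ± 0.22 (adjusted p = 7.08e-06), from 11.4 to 47.8 CPM.

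Of 14 genes of variant PRC1 4 rose, 5 fell and 5 were not called at 48 h, where 48.8% of all genes tested were called. Those with the largest changes were Yaf2 (2.55 ± 0.24, edgeR adjusted p = 1.52e-06), a partner of RING1B, Pcgf5 (1.74 ± 0.27, adjusted p = 0.000133) and Auts2 (1.43 ± 0.22, adjusted p = 0.000130), which encode a PCGF subunit and its partner. Neither H3K27 demethylase gene was called, Kdm6a at −0.06 ± 0.14 and Kdm6b at 0.22 ± 0.17 by edgeR. Among 6 genes of the complex that removes ubiquitin from H2A (PR-DUB), 1 rose (Asxl3, 0.91 ± 0.28) and 2 fell (Bap1, −0.53 ± 0.12, and Asxl1, −0.51 ± 0.11). Of 11 genes of the H3K4 methyltransferase complexes 4 fell and none rose, where 22.9% of all genes tested were called lower and 25.8% higher, with the largest falls in Dpy30 (−1.10 ± 0.14), Wdr5 (−0.88 ± 0.12) and Rbbp5 (−0.53 ± 0.15).

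Against DMSO at 48 h some of these named genes were not called by edgeR. Epop was at −0.53 ± 0.38 (adjusted p = 0.334), with 997 CPM in that DMSO library, and Auts2 at 0.61 ± 0.34 (adjusted p = 0.206). Asxl3 was at −0.026 ± 0.42 (adjusted p = 0.980) and Bap1 at −0.37 ± 0.16 (adjusted p = 0.12). Mtf2 was at −0.54 ± 0.20 (adjusted p = 0.0659) and Rbbp5 at −0.58 ± 0.21 (adjusted p = 0.0568). The changes of Rbbp7, Phf19, Phc1, Bmi1, Yaf2, Pcgf5, Usp7, Asxl1, Dpy30 and Wdr5 were called in the same direction as against 0 h, and the comparisons share their RA libraries.

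**Figure D5:**
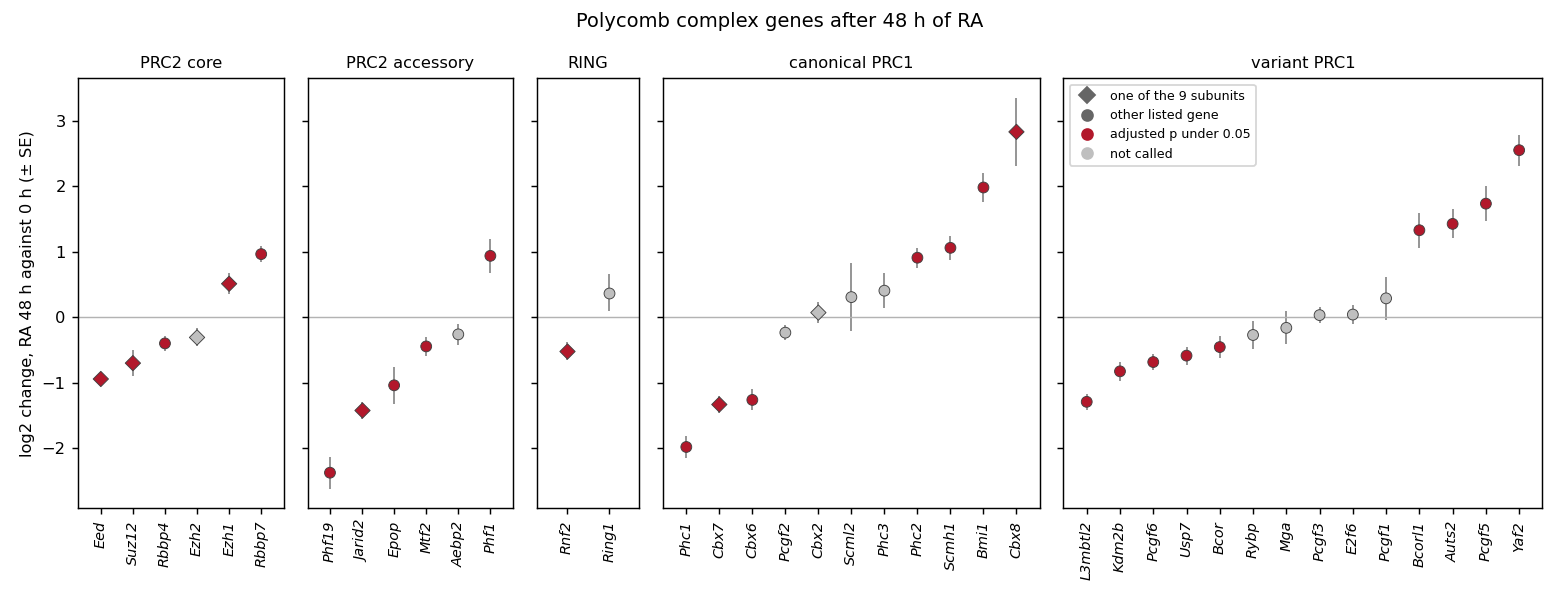
Log2 change at 48 h of RA against 0 h (± SE) of every listed Polycomb gene, in panels by complex and ordered by value; diamonds are the 9 subunits described here, circles other listed genes, and red marks an adjusted p under 0.05. Genes that rose and genes that fell stand side by side in all panels except RING, where Rnf2 fell and Ring1 was not called.

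Markers of cell state and cell division also changed. The counts given first are at 48 h against 0 h, where 25.8% of all genes tested were called higher and 22.9% lower. All 8 embryonal carcinoma markers fell at 48 h, with a summed level of 4626 to 5535 CPM at 0 h and 1442 to 2324 CPM at 48 h. All 6 primitive endoderm and all 8 parietal endoderm markers rose, the latter from a sum of 450 to 680 CPM to 5748 to 7921 CPM. Visceral endoderm markers rose in 3 of the 3 tested of 6 listed, from a sum of 0.388 to 0.911 CPM to 8.42 to 40.6 CPM, with Afp at 0 in every library before 48 h. The visceral markers tested, Ttr, Apob and Amn, lay under the filter level of 1.05 CPM in every 0 h library. So did Sox17 and Foxa2 of the primitive endoderm, Plat and Thbd of the parietal endoderm and Tbx6 of the mesoderm list. Such genes were tested only because they were high in RA, so their rises are a description and not support. Of the other lists, 2 of 3 neural markers tested fell, and 1 of 4 mesoderm markers rose and 1 fell. Of 18 proliferation genes, 15 fell at 48 h and none rose. Their summed level was 6039 to 6201 CPM at 0 h, 5603 to 5943 CPM at 24 h, 4247 to 4501 CPM at 48 h, and 6362 and 6020 CPM in DMSO. In the comparison with DMSO at 48 h, where 24.1% of all genes tested were called, 10 of the 18 proliferation genes fell. There 7 of 8 embryonal carcinoma markers fell, and all 6 primitive and 7 of 8 parietal endoderm markers rose. The 3 visceral markers tested rose too, 1 of 3 neural markers tested fell and no mesoderm marker was called. Both comparisons share their RA libraries. The part of these markers in the changes of the 9 genes was not tested.

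Among the 9 genes, levels over the 14 libraries, with the set difference removed, ran together most closely for Eed and Jarid2 (r = 0.963), Ezh2 and Rnf2 (r = 0.931), Jarid2 and Cbx7 (r = 0.907), and Suz12 and Rnf2 (r = 0.906). Ezh1 and Cbx8 ran against Ezh2, Eed and Suz12, with Eed and Cbx8 at r = −0.888 and Eed and Ezh1 at r = −0.796. Cbx2 followed none of them closely, with r between −0.55 and 0.55. These are descriptions over libraries that share groups, depth and normalization. The genes most like each of the 7 called at 48 h were sought by the same measure among 11098 genes with at least 5 CPM on average.

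Jarid2 was most like Urb1 (r = 0.993), Mybbp1a (r = 0.988) and Pdzd4 (r = 0.987), and Eed most like Bmp4 (r = 0.984), Dhx8 (r = 0.983) and Dnajc21 (r = 0.982). For Cbx7 they were Tfap4 (r = 0.981), Kctd3 (r = 0.977) and Igfbpl1 (r = 0.970), and for Rnf2 Usp7 (r = 0.979), Chek1 (r = 0.978) and Nup153 (r = 0.978). Usp7, a deubiquitinase of variant PRC1, is also on the lists and fell by 0.59 on the log2 scale at 48 h (SE 0.14, edgeR adjusted p = 0.00313). Ezh1 was most like Atp9a (r = 0.921), Mxra8 (r = 0.913) and Trpm4 (r = 0.911), and Cbx8 most like Iqsec2 (r = 0.960), Kcnd1 (r = 0.948) and Sec24d (r = 0.927). The closest to Suz12 was Gm12346 (r = 0.981), annotated as a pseudogene on chromosome 11, followed by Bub1 (r = 0.970) and Gabpa (r = 0.969). Whether Gm12346 shares sequence with Suz12 is not stated in the tables used here, and reads of near-identical copies could be split between genes.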

How the data were processed

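RNA of F9 cells was sequenced in 14 libraries. Per the labels, TRIzol RNA went into TruSeq V2 libraries read as single ends on 2 instruments, and which instrument read each library is not stated. The tools listed in the submitters' processing notes include TopHat2 2.0.7, HTSeq and DESeq, with build mm9. The options, and whether counting used strand, are not given in the sources used here, so reads shared with overlapping genes (Gm35829 for Cbx2, Apobec3 for Cbx7, F830010H11Rik for Ezh2 in GRCm38.p6) cannot be told apart. What the authors deposited for each library is a table of raw counts by Ensembl gene. Of the 36814 genes 31841 had a symbol. The 5 entries for reads given to no gene, 72.5 to 76.8% of each table, were left out of totals.

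CPM values are counts scaled to a common total of gene counts. The edgeR 4.0.16 quasi-likelihood fit (R 4.3.3) took all libraries at once, with a term per group and 1 for library set (6 residual degrees of freedom), TMM normalization (factors 0.929 to 1.10), robust estimation and the default filter, which kept 16155 genes. P-values are two-sided and adjusted over these. Libraries were sorted into sets by the widest gap in the percentage of reads outside annotated features. The fit was tested on simulated data. Ratios of counts were compared by exact permutation tests with SciPy 1.17.1 in Python 3.11.15, using NumPy 2.4.6 and pandas 2.3.3, and plots drawn with matplotlib 3.10.9. The permutation tests took no account of library set. Correlations used log2 CPM with a prior count of 3 after removing the set with limma 3.58.1.

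The members, gene lists, sets and tests were chosen with earlier results of these data known. A gene taken off the lists afterwards, whatever its values, is not reported here. Beside the 9 members, the text names up to 3 called genes of each list with the largest change at 48 h and the 3 genes most like each member called at 48 h, and others where it says so. Replicate numbers come from the labels, which do not say what they mark. Deviations of number 1 from number 2 correlated between groups (r 0.660 to 0.792, 10 pairs of groups), but the numbers are also the set split in these groups, and the 2 cannot be told apart. Alternatives were no set term, the replicate block, RLE normalization, DESeq2 1.42.0 with the set term, no filter, at least 1 CPM in 4 libraries, set 2 alone, only the groups compared, each library left out, and for ratios 5 added to each count or each set alone. Counting intervals cover counting error only. The list of receptor binding regions was not used here, since no gene positions of its build were at hand.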

Additional observations from a re-analysis of the deposited data

Results flagged for a closer look

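The log2 ratio of Cbx2 to Cbx7 counts in replicate 4 of 0 h was −1.71, while the other 3 libraries of 0 h lay between −1.27 and −1.20. Its gap to the nearest of them, divided by the range of the group, was 0.859, above Dixon's 95% critical value of 0.829 for 4 samples. The Cbx2 level in that library, 50.7 CPM, was the lowest of the 4, and Cbx7 was at 166 CPM, within the range of the others. In all, 13 such checks were made, over the 9 genes and 4 ratios at 0 h, and chance flags about 1 in 20.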

How the results depend on the processing

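Of 1473 recomputed changes of the 9 genes, 1338 kept their direction and their side of the threshold, 53 lost a call, 34 gained one and 48 changed sign, all of them changes that were not called. Jarid2, Cbx7 and Eed kept their calls at 48 h against 0 h in every setting run. Cbx8 kept its call too, but it passed the filter only because it was high in RA, so this is no support for its rise. The gene counts called at 6, 12, 24 and 48 h, 906, 2050, 4689 and 7881, were 268, 444, 1993 and 4766 without the set term and 271, 481, 1677 and 5146 in set 2 alone, which has fewer libraries. With only the groups compared, 2674 were called at 24 h. At 48 against 24 h the 1781 genes became 114 without the set term and 179 in set 2 alone, and against DMSO the 1687 and 3892 genes of 24 and 48 h became 305 and 1286 without the set term. DESeq2 called 6 genes for DMSO against 0 h, where edgeR called 0. Of the 9 genes, no set term left 4 called at 48 h, 0 at 48 against 24 h and 2 at 24 h against DMSO. Set 2 alone left 0 at 12 h, 3 at 24 h and 0 at 48 against 24 h, and DESeq2 called 3 at 12 h. The replicate block called 1 at 6 h (Cbx2) and 2 at 12 h (Cbx2 and Cbx7) and added Suz12 at 24 h, and it changed no other call. With the replicate block the 4 ratios differed by 0.81, 1.04, 4.04 and −3.00. Without each library in turn the genes called ranged over 241 to 1008 at 6 h, 467 to 2391 at 12 h, 3171 to 4694 at 24 h, 5096 to 8242 at 48 h, 707 to 2425 at 48 against 24 h, 587 to 2682 and 2256 to 4489 against DMSO at 24 and 48 h, and 0 to 1 for DMSO against 0 h. The same fits called 0 to 1, 1 to 3, 4 to 7, 6 to 8, 0 to 1, 2 to 7, 4 to 7 and 0 of the 9 genes. The ratios, in the order Ezh1 to Ezh2, Cbx2 to Cbx7, Cbx8 to Cbx7 and Cbx2 to Cbx8, ranged over 0.56 to 0.86, 1.06 to 1.37, 3.99 to 4.79 and −3.42 to −2.81 without each library. They were 1.13, 1.23, 5.40 and −4.17 in set 1 alone and 0.35, 1.22, 3.46 and −2.24 in set 2 alone, where the smallest exact permutation p is 0.2. Sign changes, all of values not called, were for Rnf2 at 6 h −0.12 without the set term, −0.10 with the replicate block, −0.00016 with RLE and −0.035 with only the groups compared, and at 12 h −0.069 and −0.059 without the set term and with the block. For Cbx8 at 12 h they were 0.24, 0.014 and 0.031 without the set term, with the block and with DESeq2, for Ezh1 at 12 h 0.015 in set 2 alone and 0.0026 with only the groups compared, and with the block −0.018 for Eed at 6 h and −0.063 for Cbx2 at 48 h. For DMSO against 0 h Suz12 was at −0.25 and Rnf2 at −0.40 without the set term, and Rnf2 at −0.10 with only the groups compared. Without each library in turn, changes that turned sign ranged as follows: at 6 h Rnf2 −0.044 to 0.14 and Eed −0.031 to 0.084, at 12 h Cbx8 −0.58 to 0.50 and Ezh1 −0.19 to 0.065, at 24 h Cbx2 −0.13 to 0.074, and at 48 h Cbx2 −0.039 to 0.17. Others were at 48 against 24 h Ezh2 −0.14 to 0.25, Suz12 −0.65 to 0.24, Rnf2 −0.27 to 0.17, Cbx8 −0.16 to 0.77 and Ezh1 −0.081 to 0.61, at 24 h against DMSO Cbx2 −0.089 to 0.041, at 48 h against DMSO Ezh1 −0.15 to 0.53, and for DMSO against 0 h Jarid2 −0.071 to 0.071 and Cbx2 −0.20 to 0.032. The causes were not tested. The RA groups hold 2 libraries and each DMSO group 1, which allows no replicate check within DMSO, no DMSO fit in set 2 or with the block, and no residual degrees of freedom for RA against DMSO of 1 time alone with the set term. A fit of both times together was not run. The alternatives cover the 9 genes, the ratios and the counts and not the other genes named. Cbx8 had 28 reads in all at 0 h, so its level there is imprecise.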
